A study of Homo sapiens with 6 samples.

Results

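The genes described here are 36 genes that encode a bromodomain, taken by symbol from a deposited table of 26364 genes, with BRD8 itself left out. The transcripts of Calu3 cells, a line from a lung adenocarcinoma that keeps airway epithelial traits, were sequenced from one end. Libraries came from cells transfected with siRNA against BRD8 (siBRD8, 3 libraries) or with a negative control siRNA (siNC, 3 libraries), each at 20 nmol as the labels give the amount. The titles and the cell line field name Calu3 in every sample, although the shared protocol speaks of HBE cells at RNA extraction, and a single siRNA product was used against BRD8, so effects of that product other than on BRD8 cannot be told apart from the loss of BRD8. Whether each library came from its own culture is not in the labels, so the p-values rest on the spread among these libraries alone, and that spread may be technical.

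A bromodomain is a small protein module that binds acetylated lysine, above all on histone tails, and so ties a protein to acetylated chromatin. It occurs in proteins of many kinds: BET proteins, histone acetyltransferases and their scaffolds, subunits of nucleosome remodelling complexes, nuclear body proteins of the SP100 type, TRIM corepressors, histone methyltransferases, MYND-type readers, ATPases of the ATAD2 type and large WD40 repeat proteins. BRD8 is the bromodomain subunit of the TIP60 (NuA4) acetyltransferase complex, which acetylates histone tails at promoters.

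The libraries held 34427104, 37896467 and 36906424 reads assigned to genes with siBRD8, against 37081766, 33640814 and 35086661 with siNC. BRD8 read 1312, 1084 and 1156 normalized counts in siBRD8 libraries, against 2751, 2928 and 3067 in siNC libraries, a log2 fold change of -1.30 (SE 0.0904, adjusted p = 1.13e-04, limma), and the groups did not overlap. A normalized count is the read count of a gene divided by a size factor of its library, as the authors deposited it, and fold changes are siBRD8 over siNC on log2 of that value plus 1. A gene is called changed at a Benjamini-Hochberg adjusted p under 0.05, taken over the 15354 genes whose mean reached 10 normalized counts. All 7 airway epithelial markers were present, with summed levels of 456608 to 506326 normalized counts in siBRD8 libraries, against 339402 to 413417 in siNC libraries. Leukocyte markers summed to 31.9 to 41.6 in siBRD8 libraries, against 20.9 to 41.0 in siNC libraries, with 3 of 4 below a mean of 10. Endothelial markers, all 3 below a mean of 10, summed to 10.4 to 13.3 in siBRD8 libraries, against 3.24 to 6.63 in siNC libraries. Fibroblast markers summed to 211 to 228 in siBRD8 libraries, against 213 to 225 in siNC libraries, with 3 of 5 below a mean of 10 and COL1A2 at 0. Within that sum LUM was called higher with siBRD8 (log2 fold change 0.91, adjusted p = 0.0211, limma). COL1A1 was lower and not called (-0.22, adjusted p = 0.19). The part of the epithelial marker difference in the results below was not tested, and in bulk RNA fewer cells of a type and less RNA per cell cannot be told apart.

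All 36 bromodomain genes were in the table and all passed the filter on low values. At the per-gene threshold SP140L rose and ATAD2 fell in siBRD8 libraries, and the other 34 did not pass the test. That is 1 gene higher, against 10.1% of all genes tested, and 1 gene lower, against 8.93% of all genes tested. As a share, 5.56% of the bromodomain genes were called in either direction, against 19.0% of all genes, and 8 of the 36 had an unadjusted p under 0.05, against 33.1% of all genes. Groups that did not overlap were found for 7 of the 36 (2 higher and 5 lower with siBRD8), which is 19.4%, against 36.8% of all genes (18.9% higher and 17.9% lower). The median log2 fold change was -0.12 over the 36 genes and -0.01 over all genes tested. Values below 0 were found for 26 of the 36, against 52.0% of all genes. By the quasi-likelihood test of edgeR 1 bromodomain gene was higher and 2 lower, against 10.7% and 8.66% of all genes. DESeq2 gave 1 higher and 6 lower, against 11.2% and 10.5%, and at an adjusted p under 0.05 the authors' deposited table held 6 bromodomain genes lower and SP140L alone higher, against 7.39% lower and 7.58% higher among its genes. For 21 of the 36 genes the 95% interval of the log2 fold change lay within 0.5 of 0 on both sides.

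One control library bears on most of these values. On the plane of the first pair of principal components siNC library 2 stood apart from the other libraries, and within the siNC group the chi-square per degree of freedom between libraries 1 and 2 was 51.95, against 6.63 between libraries 1 and 3. The level of siNC library 2 was the lowest of the controls in 26 of the 36 bromodomain genes (72.2%), against 41.4% of all genes tested. Relative to the mean of the 3 controls, the median log2 level of the 36 genes was -0.07, -0.21 and -0.07 in siBRD8 libraries 1, 2 and 3, against 0.12, -0.21 and 0.07 in siNC libraries 1, 2 and 3. In 21 of the 36 genes siNC libraries 1 and 3 were both above every siBRD8 library, against 30.7% of all genes, and in 16 of those 21 siNC library 2 lay at or below the highest siBRD8 library. Without siNC library 2, 2 bromodomain genes were higher (SP140L and SP110) and 16 lower (44.4%), against 15.9% and 18.1% of all genes in that fit, and the median log2 fold change of the 36 was -0.22. In all 16 of the lower genes siNC library 2 was the lowest control, so leaving it out moved their fold changes down by construction. A share for genes of like length was not computed in the fit without siNC library 2. Bromodomain gene calls are therefore given with and without that library where they differ, and calls in the partner lists as counts. In all partner lists together 3 of 138 genes were higher and 20 lower over all libraries, against 11 and 42 without siNC library 2, and what made it differ was not tested.

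**Figure D1:**
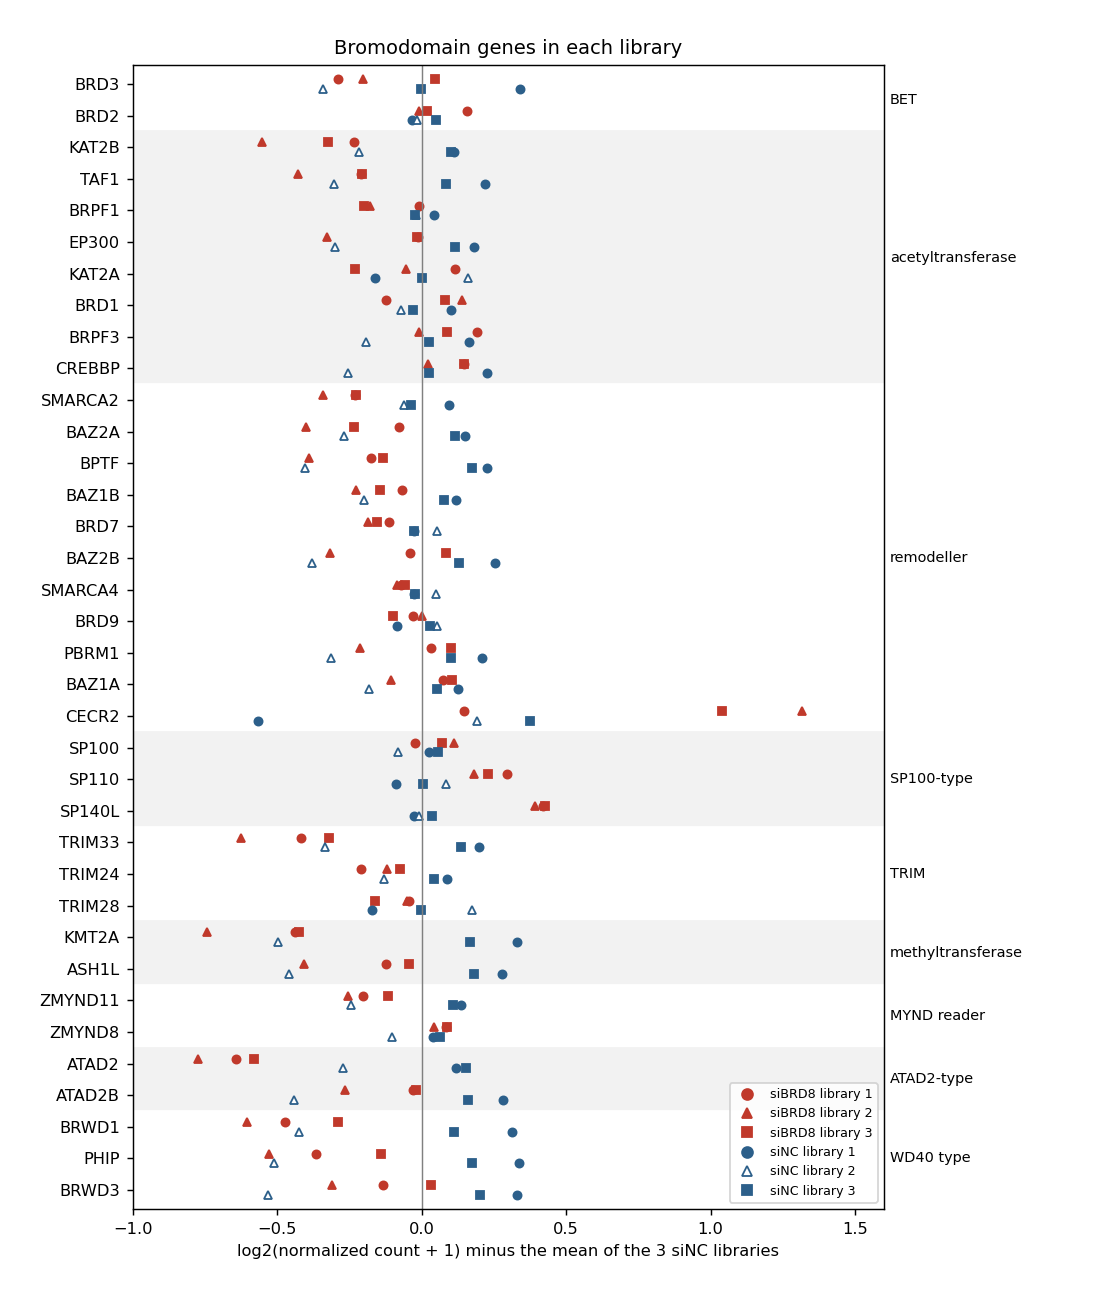
Log2 level of each bromodomain gene in each library, as the difference from the mean of the 3 siNC libraries (horizontal axis, log2 of the normalized count plus 1), with genes grouped by class down the page. Red marks are siBRD8 libraries and blue marks siNC libraries, and the open triangles of siNC library 2 lie left of the other controls in 26 of the 36 genes.

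The low values in siNC library 2 went with long transcripts. Bromodomain genes are long, with a median longest transcript of 6077 bases, against 3207 bases over all genes tested that have a length. Among the 36 genes the deviation of siNC library 2 from the other controls had a Spearman correlation of -0.73 with transcript length and of 0.62 with GC content, given as descriptions over genes that share the same libraries. Of all genes at least as long as the median bromodomain gene, 82.9% had their lowest control level in siNC library 2, against 33.3% of shorter genes. In those long genes 6.91% were called higher and 12.1% lower with siBRD8, against 10.9% and 8.47% in the shorter genes. The 16 bromodomain genes lower without siNC library 2 had a median transcript of 8585 bases, against 5456 bases for the other 20. When the trend with transcript length and GC content was taken out of every library, 2 bromodomain genes were higher and 5 lower, against 16.9% and 16.9% of all genes, and the median of the 36 was -0.08. That step also takes out any part of the treatment difference that follows length or GC content.

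**Figure D2:**
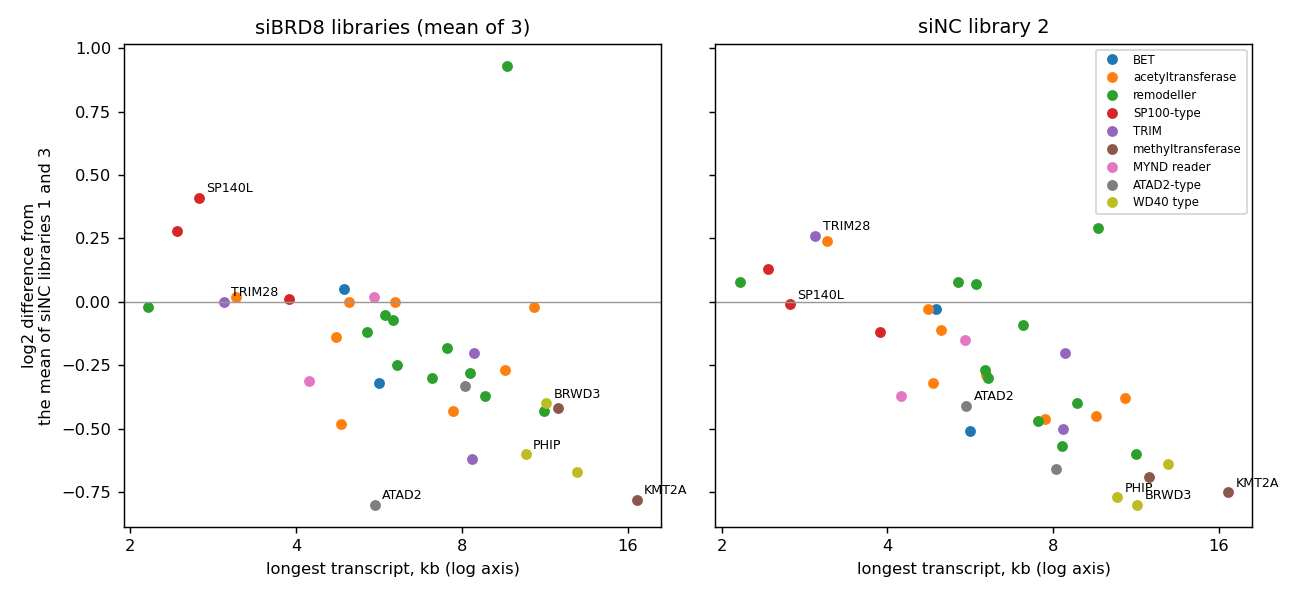
Mean of the siBRD8 libraries (left) and siNC library 2 (right), each as the log2 difference from the mean of siNC libraries 1 and 3, against the longest transcript of each bromodomain gene in kilobases on a log axis, coloured by class. Both panels share the same 2 reference libraries. Long genes such as KMT2A, BRWD3 and PHIP lie below 0 in both panels, while ATAD2 stands at -0.80 on the left and -0.41 on the right.

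Levels per kilobase of longest transcript gave the order within the family. TRIM28, the corepressor recruited by KRAB zinc finger proteins, stood highest with 3343 ± 150 normalized counts per kilobase in siBRD8 libraries, against 3563 ± 428 in siNC libraries (SD, n = 3 each). BRD2 followed with 1002 ± 62.5 in siBRD8 libraries, against 963 ± 29.3 in siNC libraries. BAZ2A had 766 ± 85.0 with siBRD8, against 907 ± 139 with siNC. SP100 had 599 ± 28.8 with siBRD8, against 578 ± 28.8 with siNC, and ATAD2 had 527 ± 35.6 with siBRD8, against 842 ± 131 with siNC. In siNC libraries ATAD2 stood above SP100, and BRD2, BAZ2A and ATAD2 did not differ beyond their spread there. In siBRD8 libraries SP100 stood above ATAD2. CECR2, the bromodomain partner of SMARCA1-type remodellers, was lowest at 2.65 ± 1.04 with siBRD8, against 1.41 ± 0.472 with siNC.

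BET proteins bind acetylated histones through a pair of bromodomains and bring elongation factors to promoters. Neither BET gene passed the test in any fit described here. BRD2 read 5250, 4678 and 4776 normalized counts in siBRD8 libraries, against 4604, 4655 and 4874 in siNC libraries, and the groups overlapped (log2 fold change 0.06, 95% interval -0.11 to 0.22, adjusted p = 0.638, limma). BRD3 read 556, 590 and 701 in siBRD8 libraries, against 861, 536 and 679 in siNC libraries. Its lowest and its highest library were both controls, and its log2 fold change was -0.15 (95% interval -0.53 to 0.23, adjusted p = 0.579), or -0.32 without siNC library 2 (adjusted p = 0.0684). Of 12 genes listed as linked to BET proteins, not all of them elongation factors, none passed the test, with a median log2 fold change of 0.03. Without siNC library 2, where 15.9% of all genes were higher and 18.1% lower, MEPCE was higher and CCNT1, CCNT2, WHSC1L1 and AFF4 lower. CCNT1, the cyclin partner of the elongation kinase CDK9, had the smallest adjusted p among them, with 1463, 1408 and 1577 normalized counts in siBRD8 libraries, against 2094, 1442 and 1919 in siNC libraries (log2 fold change -0.28, adjusted p = 0.179, and 0.00181 without siNC library 2).

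None of the 8 acetyltransferase and scaffold genes passed the test, with log2 fold changes from -0.37 to 0.10 and a median of -0.09. KAT2B, which alternates with KAT2A as the catalytic subunit of the SAGA and ATAC complexes, came nearest. It read 1113, 892 and 1047 normalized counts in siBRD8 libraries, against 1417, 1127 and 1407 in siNC libraries. The groups did not overlap, and the lowest control was only just above the highest siBRD8 library. Its log2 fold change of -0.37 (SE 0.119) had an adjusted p of 0.0602 by limma, of 0.00323 without siNC library 2 and of 0.0269 in the authors' deposited table. KAT2A had a log2 fold change of -0.06 and an adjusted p of 0.765. CREBBP and EP300, paralogous coactivators with acetyltransferase activity, had log2 fold changes of 0.10 and -0.12, and only EP300 was called without siNC library 2 (log2 fold change -0.27, adjusted p = 0.0494); the difference between the pair is given with the other paralogs below. TAF1, the largest subunit of the initiation factor TFIID, stood at -0.28 (adjusted p = 0.179, and 0.00296 without siNC library 2). The scaffolds BRD1, BRPF1 and BRPF3, which hold MYST acetyltransferases, stood at 0.03, -0.13 and 0.09. CREBBP read 2599 to 2830 normalized counts in siBRD8 libraries, against 2144 to 2993 in siNC libraries. For EP300 the siBRD8 libraries ranged over 2726 to 3386 normalized counts, against 2780 to 3876 in siNC libraries. KAT2A lay at 1324 to 1682 in siBRD8 libraries, against 1390 to 1736 in siNC libraries. In each of these the groups overlapped. TAF1 read 1946 to 2269 normalized counts in siBRD8 libraries, against 2122 to 3052 in siNC libraries. For BRD1 the siBRD8 libraries ranged over 1301 to 1560 normalized counts, against 1348 to 1518 in siNC libraries. BRPF1 lay at 533 to 609 in siBRD8 libraries, against 603 to 630 in siNC libraries. The groups overlapped here too. BRPF3 read 1082 to 1245 normalized counts in siBRD8 libraries, against 954 to 1221 in siNC libraries.

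The 11 remodeller genes had log2 fold changes from -0.27 to 0.83 with a median of -0.09, and none passed the test. Groups that did not overlap were found for SMARCA2, SMARCA4 and BRD7, all lower in siBRD8 libraries. That is 3 of the 11, against 17.9% of all genes tested that were lower without overlap. SMARCA2, one of the alternative ATPases of the BAF complexes, read 744, 690 and 746 normalized counts in siBRD8 libraries, against 934, 838 and 852 in siNC libraries, so that every control was above every siBRD8 library. Its log2 fold change was -0.27 (SE 0.083, adjusted p = 0.0554, limma), and the adjusted p was 0.0213 without siNC library 2 and 0.0489 in the authors' deposited table. After removal of the length and GC trend the SMARCA2 value was -0.16 and was not called (adjusted p = 0.113). SMARCA4, the other ATPase, varied by 1.98% among siBRD8 libraries and had a log2 fold change of -0.07 (95% interval -0.22 to 0.08). BRD7, a subunit of the PBAF form, stood at -0.15 (adjusted p = 0.157), with 42.4% of its exon bases overlapped by other genes, whose reads cannot be told apart here because the library kit does not mark strand. PBRM1, also of PBAF, and BRD9, of the form that lacks the PBAF subunits, stood at -0.03 and -0.04. For SMARCA4 the siBRD8 libraries ranged over 2778 to 2832 normalized counts, against 2890 to 3046 in siNC libraries. BRD7 lay at 2286 to 2402 in siBRD8 libraries, against 2550 to 2696 in siNC libraries. The siBRD8 libraries of both genes lay below every control, short of the threshold. PBRM1 read 2081 to 2585 normalized counts in siBRD8 libraries, against 1939 to 2788 in siNC libraries. For BRD9 the siBRD8 libraries ranged over 663 to 712 normalized counts, against 670 to 738 in siNC libraries. Their groups overlapped.

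Among bromodomain subunits of ISWI complexes, BPTF, the large subunit of NURF, stood at -0.23 (adjusted p = 0.349, and 0.00245 without siNC library 2). BAZ2A, known for silencing of ribosomal genes, stood at -0.24 (adjusted p = 0.227, and 0.00724 without that library), and BAZ1B, of the WICH complex, at -0.15 (adjusted p = 0.339, and 0.0213 without it). BAZ1A and BAZ2B, at 0.02 and -0.09, were not called with or without it. BPTF lay at 2501 to 2985 in siBRD8 libraries, against 2477 to 3833 in siNC libraries. BAZ2A read 6020 to 7521 normalized counts in siBRD8 libraries, against 6597 to 8816 in siNC libraries. For BAZ1B the siBRD8 libraries ranged over 2632 to 2936 normalized counts, against 2679 to 3346 in siNC libraries. In all of these siNC library 2 was the lowest control and the groups overlapped. BAZ1A lay at 2014 to 2332 in siBRD8 libraries, against 1912 to 2364 in siNC libraries. BAZ2B read 1410 to 1862 normalized counts in siBRD8 libraries, against 1348 to 2092 in siNC libraries. Both overlapped as well. CECR2 read 14.6, 34.1 and 28.0 normalized counts in siBRD8 libraries, against 8.53, 15.1 and 17.3 in siNC libraries. Its groups overlapped, and its log2 fold change of 0.83 had a 95% interval of -0.04 to 1.70 (adjusted p = 0.167), the widest interval of the family at the lowest level.

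The SP100-type genes SP100, SP110 and SP140L lie together on chromosome 2 and encode nuclear proteins with related domains. SP100 is a main component of PML nuclear bodies, and SP100 and SP110 are known to be induced by interferon. SP140L rose in siBRD8 libraries. It read 1087, 1066 and 1092 normalized counts in siBRD8 libraries, against 797, 808 and 833 in siNC libraries, and the groups stood well apart, with ranges within each group smaller than the gap between them. The fold was 1.33 (log2 fold change 0.41, SE 0.072, 95% interval 0.25 to 0.58, adjusted p = 0.00560, limma), and it was 0.41 with an adjusted p of 0.00213 without siNC library 2. Over every alternative run its adjusted p stayed at or below 0.0341. No exon of another gene overlaps SP140L in the annotation, but how reads shared between close paralogs were counted is not given in the sources used here.

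SP110 read 780, 720 and 745 normalized counts in siBRD8 libraries, against 597, 674 and 638 in siNC libraries. Every siBRD8 library was above every control, and its log2 fold change of 0.23 (SE 0.0842) had an adjusted p of 0.087 by limma, short of the threshold. Without siNC library 2 it was 0.28 with an adjusted p of 0.028, and after removal of the length and GC trend it was 0.21 with an adjusted p of 0.0272. Genes on the opposite strand overlap 20.9% of its exon bases. SP100 read 2204, 2422 and 2355 in siBRD8 libraries, against 2282, 2117 and 2330 in siNC libraries. Its groups overlapped and its log2 fold change of 0.05 had a 95% interval of -0.12 to 0.22 (adjusted p = 0.667). Over the 3 genes the median log2 fold change was 0.23.

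The promoter windows of these 3 genes are shown because one of them was called and a window of each holds a run of bases in common. SP110 and SP100 each have a second RefSeq window, which does not hold the run and is not shown. Each is 300 bases, from 250 before to 50 after a RefSeq gene start on GRCh38.p14, at chr2:230326943-230327242 (plus strand) for SP140L, chr2:230219935-230220234 (minus strand) for SP110 and chr2:230415951-230416250 (plus strand) for SP100, and capitals mark the shared run.
SP140L: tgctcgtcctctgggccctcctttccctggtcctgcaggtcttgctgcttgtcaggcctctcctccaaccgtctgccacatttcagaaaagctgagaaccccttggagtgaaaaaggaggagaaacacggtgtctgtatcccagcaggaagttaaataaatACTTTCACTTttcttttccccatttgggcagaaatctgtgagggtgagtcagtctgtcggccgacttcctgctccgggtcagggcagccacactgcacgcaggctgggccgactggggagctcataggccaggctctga
SP110: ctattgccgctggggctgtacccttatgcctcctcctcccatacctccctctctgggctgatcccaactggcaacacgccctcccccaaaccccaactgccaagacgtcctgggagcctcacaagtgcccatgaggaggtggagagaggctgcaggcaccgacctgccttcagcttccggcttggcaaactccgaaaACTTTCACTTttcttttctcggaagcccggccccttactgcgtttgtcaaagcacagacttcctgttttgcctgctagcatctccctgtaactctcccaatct
SP100: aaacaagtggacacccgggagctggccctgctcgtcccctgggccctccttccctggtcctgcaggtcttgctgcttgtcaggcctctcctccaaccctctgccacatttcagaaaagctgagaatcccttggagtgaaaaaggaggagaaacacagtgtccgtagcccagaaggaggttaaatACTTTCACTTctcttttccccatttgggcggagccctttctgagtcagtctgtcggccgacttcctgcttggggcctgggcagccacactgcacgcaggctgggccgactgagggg
The run reads ACTTTCACTT on the strand shown and AAGTGAAAGT on the other, and it lies 79, 43 and 56 bases before the start in SP140L, SP110 and SP100. It was picked after reading these windows, as the longest run that they share, so its presence in these 3 genes was fixed by that choice. How long a run 3 such windows share by chance was not computed. Searched on both strands, the run was found in 0.157% of 35116 RefSeq windows of this length and, among the 31 bromodomain genes with a window, in these 3 alone. The SP140L and SP100 windows are 77.1% identical in alignment, so their matches are not independent, while SP110 and SP140L are 51.4% identical. The run contains the letters AANNGAAA of the core bound by interferon regulatory factors. Those letters are in 22.8% of all windows and in 12 of the 57 windows of bromodomain genes. The longer response element, GAAA, any 2 bases and GAAA again, in 3.57% of all windows, was in none of the SP100-type windows. These are matches of letters, and SP100 holds the run with a log2 fold change of 0.05.

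PML, which organises the bodies that SP100 joins, was the 1 gene called among 10 other PML body genes. Of all genes tested 10.1% were called higher and 8.93% lower. PML read 2894, 3108 and 3136 normalized counts in siBRD8 libraries, against 2217, 2404 and 2171 in siNC libraries (log2 fold change 0.43, SE 0.0747, adjusted p = 0.00556, limma), without overlap. The median over those 10 genes was 0.01. Without siNC library 2 PML and SUMO3 were higher and ATRX and HIPK2 lower, against 15.9% and 18.1% of all genes in that fit.

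**Figure D3:**
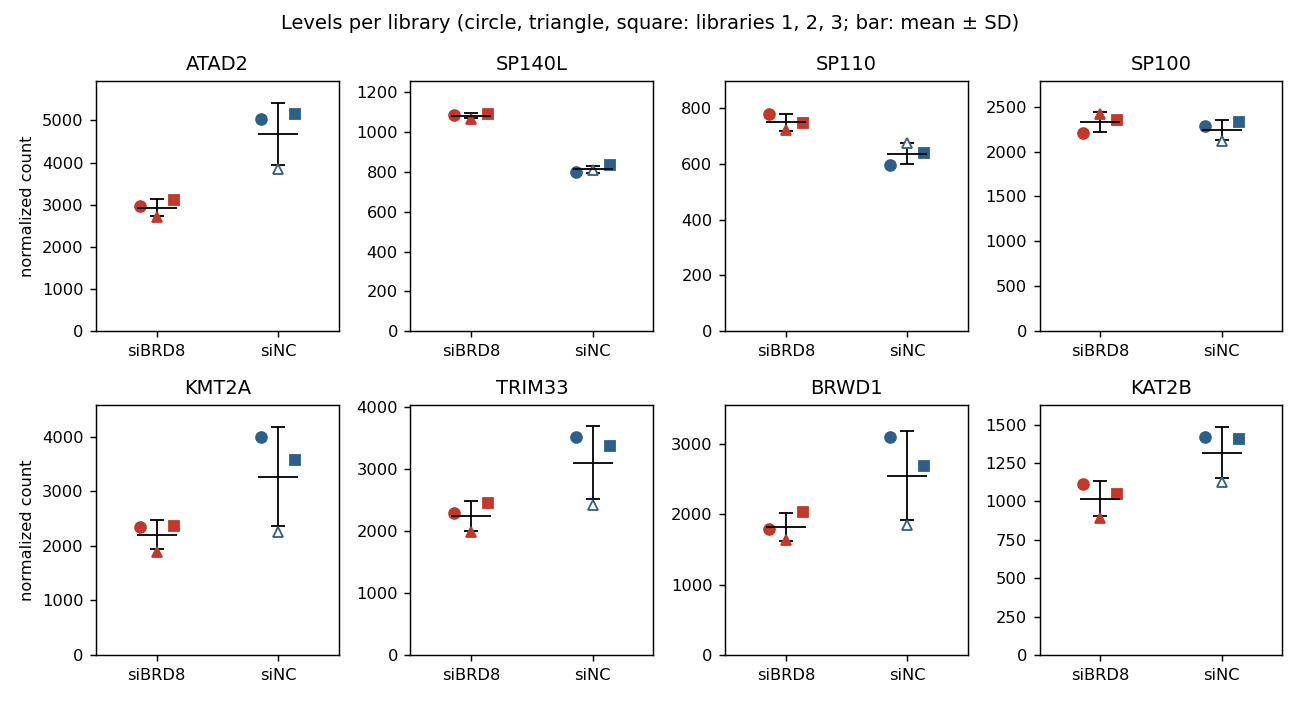
Normalized counts of 8 bromodomain genes in each library (vertical axis from 0), siBRD8 in red on the left and siNC in blue on the right of each panel, with the mean and SD as bars. SP140L is apart between groups with little spread, ATAD2 is apart with siNC library 2 (open triangle) lowest of the controls, and in KMT2A, TRIM33 and BRWD1 that library lies among the siBRD8 values.

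ATAD2 is an ATPase with a bromodomain that binds acetylated histone H4 on newly replicated chromatin and is known to be high in proliferating cells. It fell in siBRD8 libraries, to 2974, 2718 and 3107 normalized counts, against 5045, 3844 and 5162 in siNC libraries. Every siBRD8 library was below every control, and siNC library 2 was the control nearest to them. The fold was 0.631 (log2 fold change -0.66, SE 0.118, 95% interval -0.93 to -0.40, adjusted p = 0.00592, limma), and without siNC library 2 the log2 fold change was -0.80 (adjusted p = 2.71e-05). Over every alternative run its adjusted p stayed at or below 0.0324. Its paralog ATAD2B read 583 to 691 normalized counts in siBRD8 libraries, against 516 to 853 in siNC libraries, and stood at -0.11 (adjusted p = 0.719, and 0.0258 without siNC library 2). Proliferation markers were lower in the same libraries: 8 of 10 fell, against 8.93% of all genes tested. None was called higher, against 10.1% of all genes, and the median log2 fold change of the markers was -0.61. TOP2A, the topoisomerase of dividing cells, had a log2 fold change of -0.97 (adjusted p = 9.09e-04), the mitotic kinase BUB1 of -0.75 (adjusted p = 8.97e-04) and CDK1 of -0.59 (adjusted p = 9.77e-04). The other markers, PCNA (-0.04, adjusted p = 0.773, limma) and MCM3 (-0.28, adjusted p = 0.0654), were not called. The summed level of the 10 markers was 47858 to 51163 normalized counts in siBRD8 libraries, against 78165 to 97799 in siNC libraries. Most of that sum was TOP2A, with a mean of 30386 in siBRD8 libraries, against 59691 in siNC libraries. The part of the proliferation marker difference in the ATAD2 value was not tested.

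After ATAD2 the lowest log2 fold changes were those of KMT2A, BRWD1 and TRIM33, none of them called over all 6 libraries by limma. In the authors' deposited table all 3 were called, with an adjusted p of 0.014 for KMT2A, 0.028 for BRWD1 and 0.0117 for TRIM33. They and KAT2B are given in full because they were called once the length and GC trend was taken out, a choice made after their values were seen. TRIM33, a regulator of SMAD signalling, read 2293, 1984 and 2449 normalized counts in siBRD8 libraries, against 3510, 2424 and 3367 in siNC libraries. Controls 1 and 3 were above all siBRD8 libraries and control 2 was below 1 of them. Its log2 fold change was -0.45 (SE 0.144, adjusted p = 0.0574, limma), -0.62 without siNC library 2 (adjusted p = 4.32e-04) and -0.31 after removal of the length and GC trend (adjusted p = 0.0023). TRIM24, a coregulator of nuclear receptors, and TRIM28 stood at -0.14 and -0.09 and were not called in those fits. For TRIM24 the siBRD8 libraries ranged over 1265 to 1389 normalized counts, against 1337 to 1555 in siNC libraries. TRIM28 lay at 9382 to 10177 in siBRD8 libraries, against 9318 to 11850 in siNC libraries. Both overlapped between groups.

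KMT2A, the histone methyltransferase gene rearranged in acute leukaemias, has the longest transcript of the 36 at 16628 bases. It read 2347, 1897 and 2365 normalized counts in siBRD8 libraries, against 3991, 2251 and 3570 in siNC libraries, so that control 2 sat among the siBRD8 libraries and the other controls far above. Its log2 fold change was -0.54 (SE 0.195, adjusted p = 0.0899, limma), -0.78 without siNC library 2 (adjusted p = 2.05e-04) and -0.41 with the trend taken out (adjusted p = 0.00525), and 18.9% of its exon bases are overlapped by other genes. ASH1L, another histone methyltransferase, stood at -0.19 (adjusted p = 0.514, and 0.00717 without siNC library 2). ASH1L read 2796 to 3596 normalized counts in siBRD8 libraries, against 2697 to 4496 in siNC libraries. Its groups overlapped. Of 9 genes listed beside the KMT2A complex, not all of them its subunits, only PSIP1, which tethers that complex to chromatin, was called. That is 1 of 9 lower, against 8.93% of all genes tested. PSIP1 read 3245, 3310 and 3288 normalized counts in siBRD8 libraries, against 5202, 4645 and 5322 in siNC libraries (log2 fold change -0.62, adjusted p = 0.00111, limma). Without siNC library 2 MORF4L1, which is in the list but is not a core subunit of that complex, was also called, as higher.

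BRWD1 showed the same layout, with 1791, 1637 and 2036 normalized counts in siBRD8 libraries, against 3092, 1852 and 2690 in siNC libraries. Its log2 fold change was -0.46 (SE 0.173, adjusted p = 0.102, limma), -0.67 without siNC library 2 (adjusted p = 4.95e-04) and -0.28 with the trend taken out (adjusted p = 0.0049). PHIP, a substrate receptor of a cullin ubiquitin ligase, stood at -0.34 and BRWD3 at -0.14, with adjusted p of 0.275 and 0.68 over all libraries and of 0.0013 and 0.00743 without siNC library 2. Neither was called with the trend taken out, and the value of BRWD3 then was 0.03. The MYND readers ZMYND8 and ZMYND11, which bind modified histones at transcribed genes, stood at 0.07 and -0.19, and ZMYND11 was called without siNC library 2 (log2 fold change -0.31, adjusted p = 0.00676). For PHIP the siBRD8 libraries ranged over 2683 to 3512 normalized counts, against 2712 to 4891 in siNC libraries. BRWD3 lay at 2824 to 3583 in siBRD8 libraries, against 2423 to 4399 in siNC libraries. The groups of both overlapped. ZMYND8 read 2189 to 2261 normalized counts in siBRD8 libraries, against 1979 to 2222 in siNC libraries. For ZMYND11 the siBRD8 libraries ranged over 1803 to 1988 normalized counts, against 1817 to 2369 in siNC libraries. These overlapped too.

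**Figure D4:**
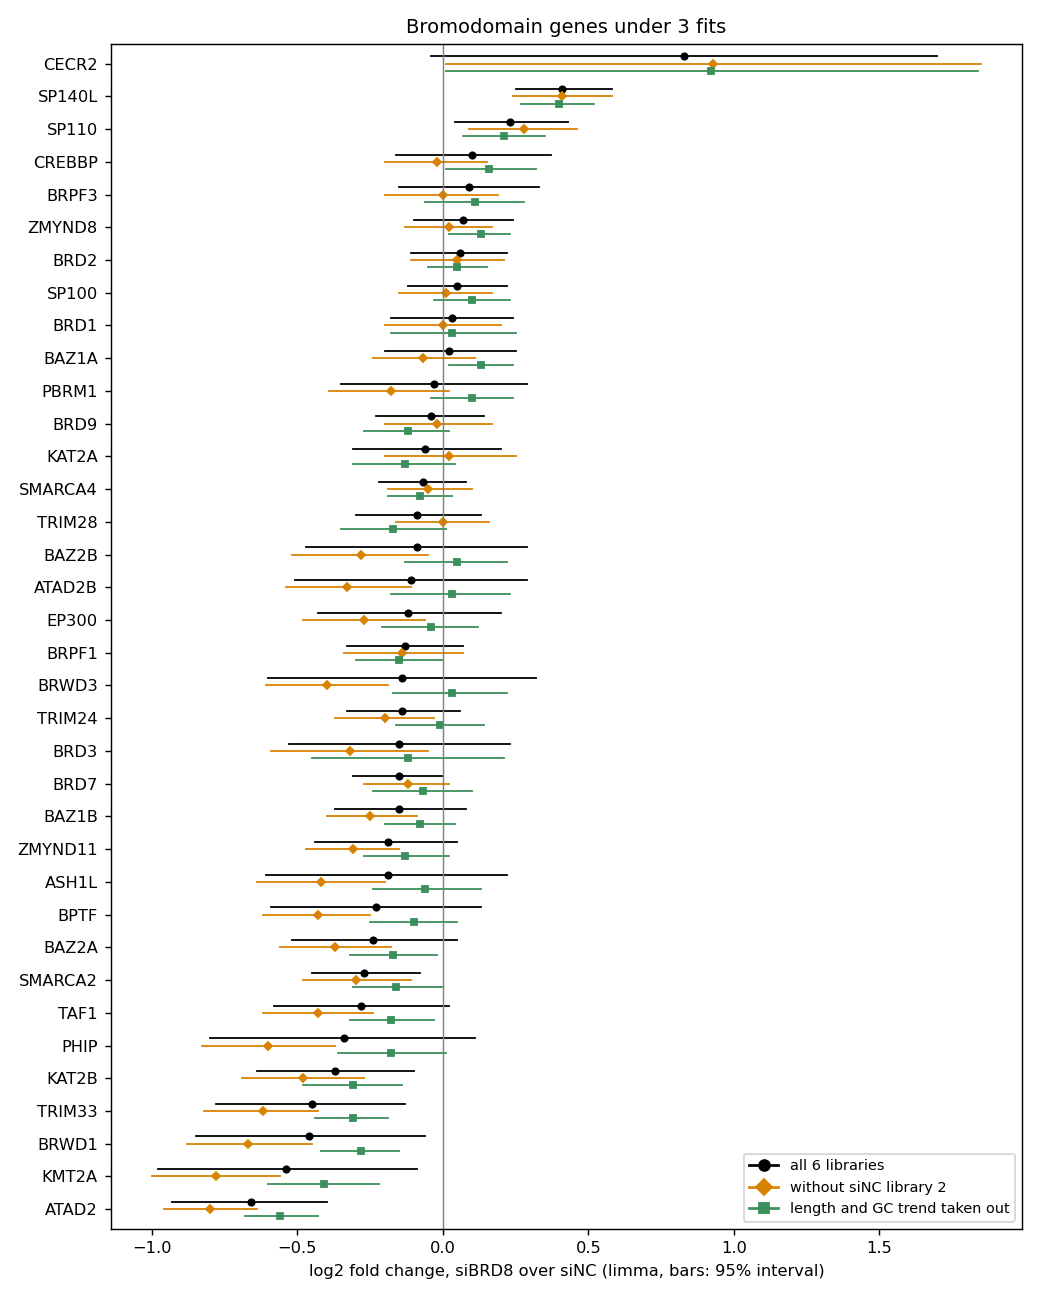
Log2 fold change of each bromodomain gene, siBRD8 over siNC, with 95% intervals from limma, under 3 fits: all 6 libraries (black), without siNC library 2 (orange) and after removal of the length and GC trend (green). SP140L lies right of 0 and ATAD2 left of 0 in all 3, KMT2A, BRWD1, TRIM33 and PHIP move further left without siNC library 2, and CECR2 has the widest intervals.

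Ratios of paired genes within a library are nearly free of library scaling. They can still carry a trend with transcript length or GC content where the paired genes differ in these. For KAT2A over KAT2B siNC library 2 stood at 0.62, against -0.03 and 0.15 in siNC libraries 1 and 3. For BRPF1 over BRPF3 it stood at -0.66, against -0.95 and -0.88. The log2 ratio differed without overlap between groups in 11 of 19 pairs. Some pairs share a gene, and no share of ratios over all genes was computed. An exact two-sided permutation test of 3 against 3 cannot go below 0.1, and the smallest Benjamini-Hochberg value over the 19 pairs was 0.173, so no pair passed. The log2 ratio of ATAD2 to ATAD2B was 2.11, 2.22 and 2.17 in siBRD8 libraries, against 2.56, 2.89 and 2.72 in siNC libraries, a difference of -0.56 (exact p = 0.1). The ratio of KMT2A to ASH1L was -0.54, -0.56 and -0.60 with siBRD8, against -0.17, -0.26 and -0.24 with siNC, a difference of -0.34. In this ratio siNC library 2 lay beside the other controls, as it also did for BRWD1 over BRWD3 with -0.83, -0.79 and -0.82 in siBRD8 libraries, against -0.51, -0.39 and -0.58 in siNC libraries. The difference for BRWD1 over BRWD3 was -0.32. Differences without overlap were also seen for CREBBP over EP300 (0.22), TRIM24 over TRIM33 (0.32), ZMYND8 over ZMYND11 (0.26), SMARCA2 over SMARCA4 (-0.19), BRPF1 over BRPF3 (-0.22), BAZ1A over BAZ1B (0.17), SP110 over SP140L (-0.18) and BRWD1 over PHIP (-0.11). The groups were barely apart for TRIM24 over TRIM33, where siBRD8 library 1 and siNC library 2 both stood at -0.86 as rounded. There siNC libraries 1 and 3 stood at -1.17 and -1.16. BRWD1 over PHIP was also barely apart, with -0.71 in siBRD8 library 2 against -0.70 in siNC library 3. BRD2 over BRD3, with 2.77 to 3.24 in siBRD8 libraries against 2.42 to 3.12 in siNC libraries, overlapped.

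**Figure D5:**
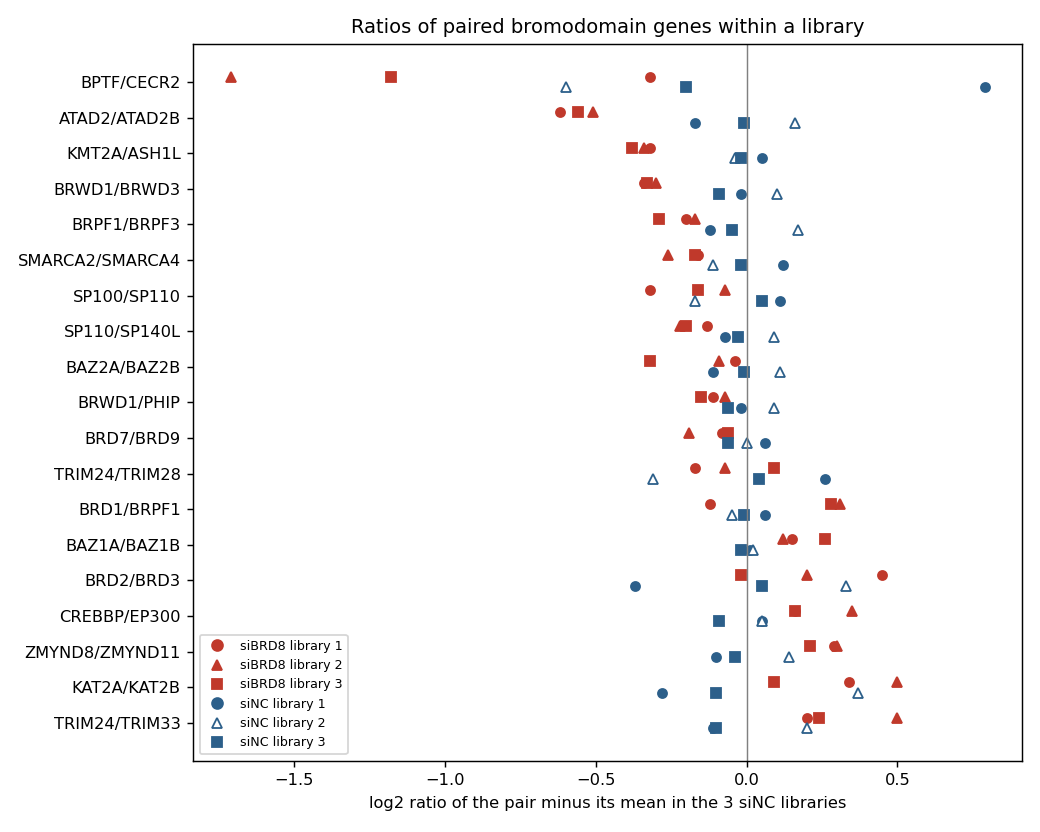
Log2 ratio of normalized counts plus 1 for 19 pairs of bromodomain genes in each library, as the difference from the mean of the 3 siNC libraries (horizontal axis). Red marks are siBRD8 libraries, blue marks siNC libraries and the open triangle siNC library 2. For ATAD2/ATAD2B, KMT2A/ASH1L and BRWD1/BRWD3 all siBRD8 libraries lie left of all siNC libraries.

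The complexes that the bromodomain proteins work in were read from lists of their other subunits. Over all partner lists 3 of 138 genes tested were higher and 20 lower, against 10.1% and 8.93% of all genes. These lists also hold PML body genes, BET-linked genes, deacetylases, YEATS readers and proliferation markers. The 3 higher genes were PML, SIRT7 and MLLT3, none of them in a list of complex subunits, and 8 of the 20 lower genes were proliferation markers. In ISWI complexes 2 of 9 fell and none rose: SMARCA1, an ISWI ATPase, with a log2 fold change of -0.73 (SE 0.0977, adjusted p = 0.00171, limma), and DEK, a chromatin protein, with -0.45 (SE 0.0797, adjusted p = 0.00578). In BAF and PBAF 2 of 21 fell, the core subunits SMARCD1 (-0.37, adjusted p = 0.0232) and SMARCC2 (-0.26, adjusted p = 0.0326). One gene fell in each of the other complexes of this kind: TAF9B among 20 of SAGA and ATAC (-0.32, adjusted p = 0.0409), TAF4B among 14 of TFIID (-0.60, adjusted p = 0.0198), MEAF6 among 6 MYST partners of the BRPF proteins (-0.50, adjusted p = 0.00186) and CBX1, an HP1 protein, among 9 partners of TRIM28 (-0.47, adjusted p = 0.0024). Median log2 fold changes in these lists ran from -0.18 for the MYST partners to -0.05 for SAGA and ATAC. Without siNC library 2 the counts of lower genes were 5 of 21 for BAF and PBAF, 3 of 9 for ISWI and 4 of 20 for SAGA and ATAC. They were 2 of 14 for TFIID, 4 of 6 for the MYST partners and 3 of 9 for the partners of TRIM28. TADA3 and TAF10 were higher. In that fit 18.1% of all genes were lower and 15.9% higher.

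The enzymes that remove the acetyl mark and a second family that reads it were counted beside the bromodomain genes. Of 15 histone deacetylases and sirtuins 1 rose and 3 fell, against 10.1% and 8.93% of all genes tested. Without siNC library 2 the counts were 4 and 5, against 15.9% and 18.1% of all genes in that fit. SIRT7, a nucleolar sirtuin, read 1066, 1172 and 1060 normalized counts in siBRD8 libraries, against 767, 872 and 722 in siNC libraries (log2 fold change 0.48, SE 0.0945, adjusted p = 0.0089, limma). HDAC2 and HDAC5 had log2 fold changes of -0.22 (adjusted p = 0.0413) and -0.35 (adjusted p = 0.0416), and the third was HDAC8 at -0.28 (adjusted p = 0.0435). None of these 3 deacetylases was called with TMM scaling, with no filter on low values or when any library other than siNC library 2 was left out. HDAC2 and HDAC8 also lost their calls with edgeR, under quantile normalization and after removal of the length and GC trend. Of 4 genes for YEATS and other acetyl readers, MLLT3 rose, with 2820, 2753 and 2968 normalized counts in siBRD8 libraries, against 2340, 2204 and 2377 in siNC libraries (log2 fold change 0.30, SE 0.0709, adjusted p = 0.0189), and without siNC library 2 YEATS4 was also called, as lower.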

How the data were processed

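Calu3 libraries (3 siBRD8, 3 siNC) were grouped by their titles. Per the submitters' processing notes the tools were STAR 2.6, Subread's featureCounts 1.6.3 and DESeq2 1.22.1, and the build was hg19; not given in the sources used here are the annotation, the strand setting and the treatment of reads that match several genes. The deposited expression values are a signal, read here as counts divided by a size factor of each library because they are whole multiples of 1 step per library. The deposited table also holds the authors' comparison, with a log2 fold change, its error, p-values before and after adjustment and a test score whose sign is opposite to that of the fold change. Whole reads were recovered from 100% of values within 0.01, and 3 reads, a floor covering counting error only, are 2.84 to 3.24 normalized counts.

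Because values were normalized, limma 3.58.1 (R 4.3.3) with a variance trend was fitted without a replicate block to log2(value + 1), a scale that understates changes of low genes; edgeR 4.0.16 and DESeq2 1.42.0 on recovered reads were alternatives, and the model was tested on simulated data. Transcript length, GC content and exon overlap came from GENCODE v29, on another build, so no gene coordinates are given; 23747 symbols matched directly and 733 through older symbols. Promoter windows came from RefSeq.

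The 36 genes and the partner lists were chosen with earlier results of these data known. Values in every library are given for called bromodomain genes and all BET and SP100-type genes, ranges for the other bromodomain genes, and up to 3 genes are named per partner list by adjusted p, or 1 where none passed. Partner genes called only without siNC library 2, HDAC8, and the values in every library of CECR2, SMARCA2, KAT2B, TRIM33, KMT2A and BRWD1 were added after their values were seen. Sequences are not given for genes without a RefSeq window.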

Additional observations from a re-analysis of the deposited data

How the results depend on the processing

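SP140L and ATAD2 kept their direction and their call under every alternative run. The number of bromodomain genes called lower was 1 and became 2 with edgeR, where TRIM33 was added, 6 with DESeq2 and 6 in the authors' deposited table. Removing the length and GC trend left 2 bromodomain genes higher and 5 lower, with 12 and 33 partner genes and 2594 and 2595 of all genes. Leaving out 1 library at a time gave 1 to 2 bromodomain genes higher and 1 to 16 lower, 2 to 11 and 12 to 42 partner genes, 832 to 2445 and 528 to 2784 of all genes, and 11 to 14 pairs without overlap. The highest of these, and the only ones above 1 lower bromodomain gene, came without siNC library 2; the lowest over all genes came without siNC library 3. The small values changed sign: PBRM1 was 0.01 under quantile normalization and 0.10 with the trend taken out, where BAZ2B was 0.05, ATAD2B 0.03, BRWD3 0.03, BRD7 over BRD9 0.06 and TRIM24 over TRIM28 0.16; the cause was not tested. Leaving out 1 library gave log2 fold changes of -0.33 to 0.04 for ATAD2B, -0.07 to 0.09 for BAZ1A, -0.28 to 0.04 for BAZ2B, -0.02 to 0.11 for BRD1, -0.32 to 0.02 for BRD3, -0.00 to 0.17 for BRPF3, -0.40 to 0.03 for BRWD3, -0.02 to 0.22 for CREBBP, -0.14 to 0.03 for KAT2A, -0.18 to 0.08 for PBRM1, -0.17 to 0.00 for TRIM28 and -0.20 to 0.08 for TRIM24 over TRIM28. No scaling moved the median of all genes beyond -0.02.

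With the replicate block 1 bromodomain gene was higher and 8 were lower, 5 partner genes were higher and 26 lower, and 1939 and 1962 of all genes were called. The labels give both groups the numbers 1 to 3 but no shared origin, and same-numbered libraries correlated in their deviations at -0.085, 0.335 and 0.155, so the numbers were not taken to pair the libraries; siBRD8 libraries 1 and 3 correlated best with siNC libraries 3 and 1. The block combined with the length and GC trend was not run for that reason. Depth bears most on CECR2 among the 36 genes, at 8.53 to 34.1 normalized counts against a floor of 2.84 to 3.24.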
